A study of Mus musculus with 7 samples.

Results

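Chromatin accessibility was measured inside introns, at sites far from any promoter, in epiblast-like cells (EpiLCs) with and without the transcription factors Smad2 and Smad3. The intronic sites were the autosomal rows of the deposited site table whose midpoint lay in an intron and in no exon of a curated RefSeq transcript, 5 to 500 kb from the nearest transcription start site (TSS). They numbered 19282 of the 75880 listed sites, or 25.4%, and lay in 6005 host genes. A site belonged to the first introns when its intron was the first one in every curated transcript that contained it (4249 sites), and to the later introns when it was the first in none (14224 sites). The remaining 809 sites were in a first intron of some transcripts and in a later one of others.

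ATAC-seq uses the transposase Tn5, which cuts and tags DNA where chromatin is open, so that reads gather at accessible regulatory elements. WT cells (clone CCE) and Smad2/3 DKO cells (clone KT15.1F6), both of strain 129/Sv//Ev, were taken from 2i medium with LIF and cultured for 48 h with 20 ng/ml activin A, 12 ng/ml Fgf2 and KSR on fibronectin. The DKO clone was made from Smad2 tm1Rob/tm1Rob ESCs, from which the promoter and exon 1 of Smad3 were deleted with the Cas9 nickase. Each genotype had 3 differentiations of 75000 cells per transposition, and 100 ng of WT genomic DNA treated with Tn5 served as control. Each genotype was 1 clone, so that clone and genotype cannot be told apart.

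The table gives for each site the authors' mean over the 3 differentiations of a genotype, as a log2 concentration of normalized reads. A concentration one unit higher is a mean read number higher by a factor of 2. No value per library was used here, so the spread between differentiations is unknown and no test of a single site could be made. A site is called lower or higher below where the Smad2/3 DKO concentration differs from the WT concentration by more than 1.5-fold (0.585 on the log2 scale), which describes the 2 means and nothing more. In a population of cells, fewer cells with an open site and a less open site in every cell cannot be told apart. The depth of the libraries is unknown, and a site of low concentration rests on few reads.

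Introns are removed from the transcript, but the DNA they are copied from holds many enhancers, elements bound by transcription factors that act on a promoter at a distance, either of the host gene or of a neighbour. First introns begin next to the promoter and are on average the longest of a gene, and the DNA close to a TSS is often open in many cell types. Nodal and activin bind type I and type II receptors that phosphorylate Smad2 and Smad3, which enter the nucleus with Smad4 and bind enhancers together with partners such as FoxH1. In the early embryo this pathway is known for patterning the epiblast and inducing mesendoderm. The labelled cell type was checked at promoters, where 6 of 8 epiblast markers had a site within 1 kb of a TSS, among them Pou5f1 (WT 7.71) and Fgf5 (WT 6.63). None was counted for Otx2 or Pou3f1, but a site nearer to the TSS of another gene was not counted for a marker. Sites were also listed at promoters of primitive endoderm and trophectoderm markers, such as Sox17 (WT 7.61) and Eomes (WT 8.69), so that promoter accessibility did not separate these cell types.

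The DNA of 5 intronic sites is shown here because these sites stand at the extremes of the comparison or hold a letter string of a Smad partner. Each line gives 300 bases around the midpoint, on the plus strand of GRCm38.p6 (RefSeq), the C57BL/6J genome, whereas the cells are of strain 129. Capitals mark every match to the 10 letter strings searched, which are spelled out with their counts further down. The Niban1 site (chr1:151582195-151582494, first intron) had the lowest difference of all first intron sites with a concentration of at least 6, and the Bckdhb site (chr9:84024760-84025059) the lowest of the later introns. The Ski site (chr4:155189740-155190039, first intron) holds the FoxH1 string, read on the minus strand. The St6galnac5 site (chr3:152944880-152945179, later intron) and the Foxp1 site (chr6:99240855-99241154, later intron) were added after their values were seen, as lowered and raised sites in sequence that is little repeated.
Niban1: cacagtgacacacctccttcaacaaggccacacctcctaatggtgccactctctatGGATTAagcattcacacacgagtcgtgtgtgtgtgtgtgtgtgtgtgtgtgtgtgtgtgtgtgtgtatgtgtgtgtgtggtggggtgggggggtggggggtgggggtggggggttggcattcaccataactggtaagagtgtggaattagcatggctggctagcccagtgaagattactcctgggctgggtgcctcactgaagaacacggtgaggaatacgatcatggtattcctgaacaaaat
Ski: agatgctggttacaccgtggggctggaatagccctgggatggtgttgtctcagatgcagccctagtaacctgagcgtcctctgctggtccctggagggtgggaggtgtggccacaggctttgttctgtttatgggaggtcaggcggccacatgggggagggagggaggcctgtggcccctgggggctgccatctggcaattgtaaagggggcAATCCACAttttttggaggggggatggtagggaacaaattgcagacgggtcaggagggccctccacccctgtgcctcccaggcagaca
Bckdhb: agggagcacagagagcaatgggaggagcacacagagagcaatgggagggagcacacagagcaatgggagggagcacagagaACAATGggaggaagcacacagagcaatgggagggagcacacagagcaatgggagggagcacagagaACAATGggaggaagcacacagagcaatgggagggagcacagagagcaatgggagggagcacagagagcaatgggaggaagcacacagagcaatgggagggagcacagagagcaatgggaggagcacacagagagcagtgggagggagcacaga
St6galnac5: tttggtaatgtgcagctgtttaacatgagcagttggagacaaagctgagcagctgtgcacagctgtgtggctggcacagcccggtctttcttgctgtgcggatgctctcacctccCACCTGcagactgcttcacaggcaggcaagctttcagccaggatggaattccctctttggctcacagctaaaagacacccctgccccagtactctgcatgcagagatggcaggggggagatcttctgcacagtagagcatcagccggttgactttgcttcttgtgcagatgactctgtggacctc
Foxp1: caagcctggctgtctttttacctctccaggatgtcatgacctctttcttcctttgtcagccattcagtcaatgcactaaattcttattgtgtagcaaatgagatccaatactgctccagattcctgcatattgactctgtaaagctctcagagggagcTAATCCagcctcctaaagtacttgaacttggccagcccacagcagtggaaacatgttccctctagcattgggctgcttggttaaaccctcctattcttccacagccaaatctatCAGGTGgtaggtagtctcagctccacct

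Over all distances, first and later introns held sites of the same median width and nearly the same median accessibility. The median width was 350 bp in both classes, with quartiles of 240 and 500 bp in first introns and of 250 and 480 bp in later ones. The median WT concentration was 4.78 in first introns (95% order-statistic interval 4.74 to 4.81) and 4.79 in later introns (4.76 to 4.81). In Smad2/3 DKO cells the medians were 4.67 and 4.64. The median DKO minus WT difference was -0.12 in first introns (-0.14 to -0.10) and -0.12 in later introns (-0.13 to -0.12). These intervals count sites as if they were independent, which sites of 1 gene are not, and say nothing of the spread between differentiations.

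Since a wider site collects more reads, the levels were also compared per kb of site. On this log2 scale of concentration per kb the WT median was 6.36 in first introns and 6.37 in later introns, and sites within 1 kb of a TSS reached 7.05. Intronic sites were thus narrower and, per length, less accessible than promoter sites, whose median width was 750 bp. They resembled the 28764 intergenic sites at the same distances, which had a median width of 360 bp, a WT median of 4.83 and 6.38 per kb.

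Of the intronic sites, 3777 (19.6%) were lower in Smad2/3 DKO cells and 1904 (9.87%) were higher. Over all listed sites 16.0% were lower and 8.51% were higher, and within 1 kb of a TSS the shares were 4.2% and 3.75%. Intergenic sites 5 to 500 kb from a TSS had 18.8% lower and 9.91% higher, close to the intronic sites. In first introns 863 sites (20.3%, 95% Wilson interval 19.1 to 21.5) were lower and 454 (10.7%) were higher. In later introns 2725 sites (19.2%, 18.5 to 19.8) were lower and 1371 (9.64%) were higher. The shares of the 2 classes differed by about a single percentage point in each direction, and the intervals of the lower shares overlapped. The SD of the difference across sites was 0.687 in first and 0.676 in later introns.

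**Figure D1:**
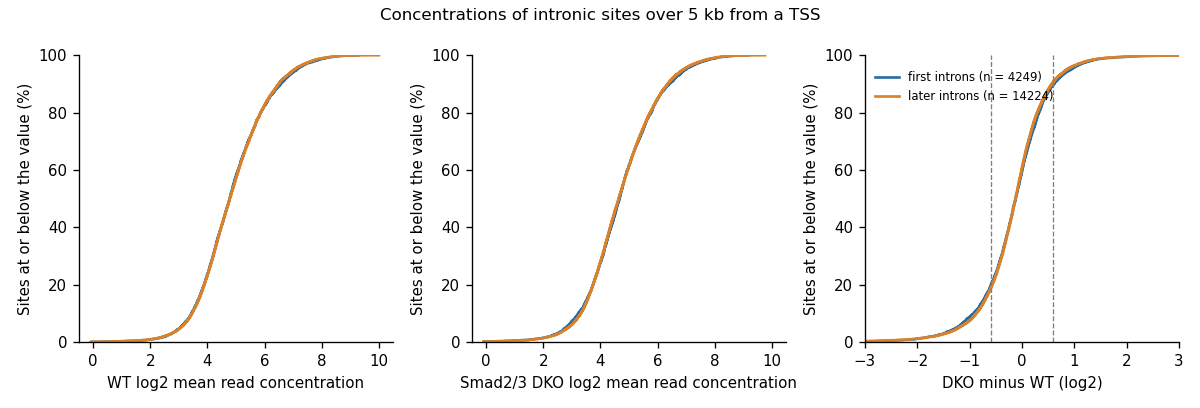
Cumulative share of sites (y axis, percent) by WT concentration, by Smad2/3 DKO concentration and by their difference (x axes, log2 mean read concentration) for the 4249 first intron sites (blue) and the 14224 later intron sites (orange). Dashed lines mark 1.5-fold. The curves of both classes lie on each other in all 3 panels, with medians of 4.78 and 4.79 in WT cells.

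The share past 1.5-fold depended strongly on the concentration. Among sites with a mean concentration of 3 to 4 over both genotypes, 32.3% of first intron sites and 29.7% of later intron sites were lower, and 19.5% and 18.5% were higher. At a concentration of 6 to 7 the lower shares were 10.6% and 10.2%, and the higher shares were 3.99% and 2.39%. All listed sites behaved alike at low concentration, with 29.4% lower at 3 to 4, but at 6 to 7 only 7.37% of all listed sites were lower. Above a concentration of 7, where promoters make up most of the list, 6.11% of first intron sites and 6.33% of later intron sites were lower, against 2.2% of all listed sites.

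The host gene's layout was compared next. Later introns held more sites and cover more sequence. First introns took 170.75 Mb, or 21.4% of the eligible intronic DNA, and 22.0% of the sites. This gave 24.9 sites per Mb in first introns, 24 in later introns and 24.7 in intergenic DNA 5 to 500 kb from a TSS. Intergenic DNA held 29.6 sites per Mb at 5 to 10 kb and 19.6 at 200 to 500 kb, whereas later introns stayed between 22.4 and 25.7 in all 6 distance bins. First introns ranged from 20.2 at 200 to 500 kb to 26.8 at 50 to 100 kb. Weighting later introns by the distances of first introns gave 23.7 sites per Mb.

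First intron sites were nearer to a TSS, with a median distance of 24521 bp against 48850 bp for later introns. That TSS belonged to the host gene for 87.2% of first intron sites and for 60.7% of later intron sites. Sites whose nearest TSS was of another gene had lower shares of 21.1% in first and 19.5% in later introns, close to the 20.2% and 18.9% of sites nearest to their host's own TSS. By the number of the intron in the longest transcript, the lower share was 20.2% in intron 1, 20.9% in intron 2 and 20.7% in intron 3. It ranged from 16.7% in intron 9 to 21.1% in intron 7 and was 17.6% of the 3990 sites in intron 10 and beyond. By position along the intron, the lower shares were 18.9 to 22.3% over the 5 equal parts of first introns and 19 to 19.6% over those of later introns.

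At long distances from the TSS the shares of the classes separated. Between 5 and 10 kb, 17.5% of first intron sites and 15.4% of later intron sites were lower, with overlapping intervals. At 10 to 20 kb the shares were 16.4% and 17.6%, and at 50 to 100 kb 20% and 18.9%, again with overlapping intervals. At 20 to 50 kb they were 21.4% (19.2 to 23.8) and 17.7% (16.6 to 19). Between 100 and 200 kb, 110 of 353 first intron sites were lower (31.2%, 26.6 to 36.2), compared with 527 of 2457 later intron sites (21.4%, 19.9 to 23.1) and 21.1% of intergenic sites. At 200 to 500 kb the shares were 29.9% (23 to 37.8), 24.5% (22.4 to 26.7) and 22.0%, and the intervals of first and later introns overlapped. The higher share showed no such order with distance, at 10.9% of first intron sites between 5 and 10 kb and 8.22% between 100 and 200 kb. The median difference of first intron sites was -0.09 at 5 to 10 kb and -0.27 at 100 to 200 kb, and that of later intron sites was -0.08 and -0.14. The WT medians of first intron sites in these bins were 4.8 and 4.84 and the DKO medians 4.67 and 4.49. At 200 to 500 kb, with 144 first intron sites, both were lower, at 4.535 in WT and 4.425 in DKO cells. Later intron sites of this bin were at 4.93 in WT and 4.67 in DKO cells. The part of concentration in the shares by distance was not tested.

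**Figure D2:**
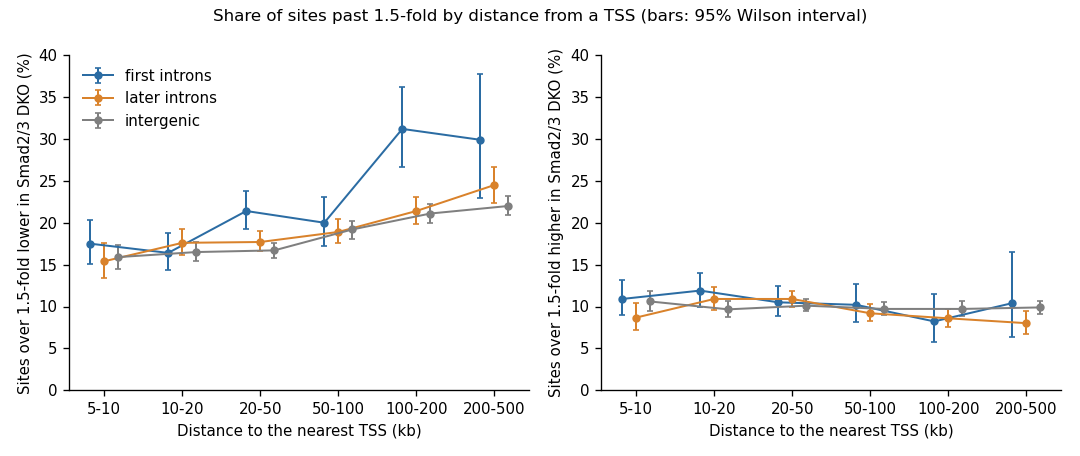
Share of sites over 1.5-fold lower (left) and over 1.5-fold higher (right) in Smad2/3 DKO EpiLCs (y axes, percent) by distance to the nearest TSS (x axis, kb) for first introns (blue), later introns (orange) and intergenic sites (grey), with bars for 95% Wilson intervals. Lower shares go from 17.5% to 31.2% of first intron sites between the 5 to 10 kb and the 100 to 200 kb bins, and from 15.4% to 21.4% of later intron sites, while the higher shares stay between 8.01% and 11.9%.

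The 497 first intron sites at 100 kb or more lay in 152 hosts, which by construction have very long first introns, and 30.8% of them were lower (26.9 to 35.0). Of the 4005 later intron sites at this distance, in 813 hosts, 22.6% were lower (21.4 to 23.9). With each host weighted equally the shares were 27.7% and 22.1%. In hosts with 1 to 3 such sites they were 26% (20.0 to 33.0) and 20.9% (18.3 to 23.9), with overlapping intervals. Without the 5 hosts with the most lower sites of each class they were 27.7% and 21.9%. The first introns with the most lower sites at this distance were those of Fam155a (8 of 15 lower, median difference -0.68), of the adhesion molecules Sdk1 (6 of 10, -0.86) and Cadm2 (6 of 8, -1.01), of Auts2 (5 of 11, -0.46) and of the synaptic scaffold Dlg2 (5 of 9, -0.61). Length of the intron went with the distance. In first introns of 5 to 20 kb 15.7% of sites were lower, and in those of 200 kb or more 29.9%, while the later introns went from 16.5% below 5 kb to 24.4% at 200 kb or more.

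Within single genes neither class was regularly above the other, although the classes of a gene often differed. In the 232 hosts with at least 3 sites of each class, the median difference of the first intron sites minus that of the later intron sites had a median of -0.035 over hosts, with quartiles of -0.246 and 0.225. It was above 0 in 103 hosts and below 0 in 125. WT concentration was higher in the first intron in 115 hosts and lower in 117. The first minus later difference in WT concentration had quartiles of -0.58 and 0.551. By chromosome, the WT median of first introns was above that of later introns on 8 autosomes and below on 11, and the lower share was above on 11 and below on 8.

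Sites were spread unevenly over hosts. A single site was found in 2822 hosts (47% of hosts), whereas 573 hosts with at least 8 sites held 7926 sites (41.1%). First intron sites occurred in 1992 hosts, later intron sites in 5069 and both in 1160. The hosts with the most sites were long genes, led by Pde4d, a cAMP phosphodiesterase, with 74 sites over 1302 kb. There the WT and DKO medians were 5.08 and 4.87, and 18 sites were lower and 4 higher. Such counts stand beside 19.6% lower and 9.87% higher of all intronic sites. Auts2 held 62 sites (18 lower, 3 higher) and Anks1b 48 (14 lower, none higher). Nrxn3, which encodes the presynaptic adhesion protein neurexin 3, held 56 sites with medians of 5.89 in WT and 5.56 in DKO cells, and 22 of them were lower and none higher. The scaffold gene Magi2 was the exception among the hosts named here, with a median difference of 0.16 over 47 sites, 8 lower and 11 higher. Ctnna3 and Gpc5 held 40 sites each, and Agbl4 and Dlgap1 36 each, all with medians between -0.24 and -0.07.

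Of the 573 hosts with at least 8 sites, 433 had a median difference below 0, 25 had one below -0.585 and only Grik3 had one above 0.585. The median SD of the difference among sites of such a host was 0.56, and 307 of the 573 hosts had sites past 1.5-fold in both directions. How much of this spread is measurement error is not known, since no spread between differentiations was available here. Grik3 encodes a kainate-type glutamate receptor subunit. Its 8 sites were all in the first intron, with WT concentrations of 4.25, 3.95, 2.73, 3.11, 5.43, 3.86, 2.73 and 4.74 from the TSS inward. The DKO concentrations of these sites were 4.92, 5.07, 4.56, 4.11, 5.45, 4.21, 3.84 and 5.57. None of the 8 was lower in DKO cells and 6 were past 1.5-fold higher. Next came Sntg1 with a median of 0.52 over 9 sites (4 higher, none lower), the receptor phosphatase gene Ptprg with 0.51 over 15 (6 higher, 2 lower) and Meis1, a homeobox gene, with 0.50 over 8 (3 higher, none lower).

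At the other end, Ctnna2, which encodes alpha-N-catenin, had 26 of 27 sites lower, at a WT median of 5.36 and a DKO median of 3.72. Tcf7l1, a repressor of Wnt target genes, had 14 of 15 sites lower, with medians of 4.88 and 3.74. Both lie in a segment of chromosome 6 (chr6:68829320-79651700) in which 56 of 58 intronic sites were lower and none was higher, with a median of -1.425 over 12 hosts. Of the 58 sites, 3 were in first and 54 in later introns. Such segments were searched for by the running median of these same differences. A high lower share inside them therefore follows from the search. The 10.8 Mb segment held 270 listed sites in all. It covers genes of unrelated function, and the part of the segment in the values of its hosts was not tested. The next lowest hosts, Pdzrn3 (6 of 9 lower, median -1.12), which lies on chromosome 6 outside the segment, and Cntnap5a (10 of 13 lower, median -0.90) of chromosome 1, lay in no such run. The 6 first intron sites of Cntnap5a, a gene of the neurexin superfamily, had WT concentrations between 3.18 and 8.48. In DKO cells all 6 were below their WT values, by 0.45 to 1.55, but not all were past 1.5-fold. A shorter run of 1.3 Mb on chromosome 16, found by the same search, held 14 intronic sites of Rbfox1, an RNA splicing factor. Of these 10 were lower (median -0.81).

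**Figure D3:**
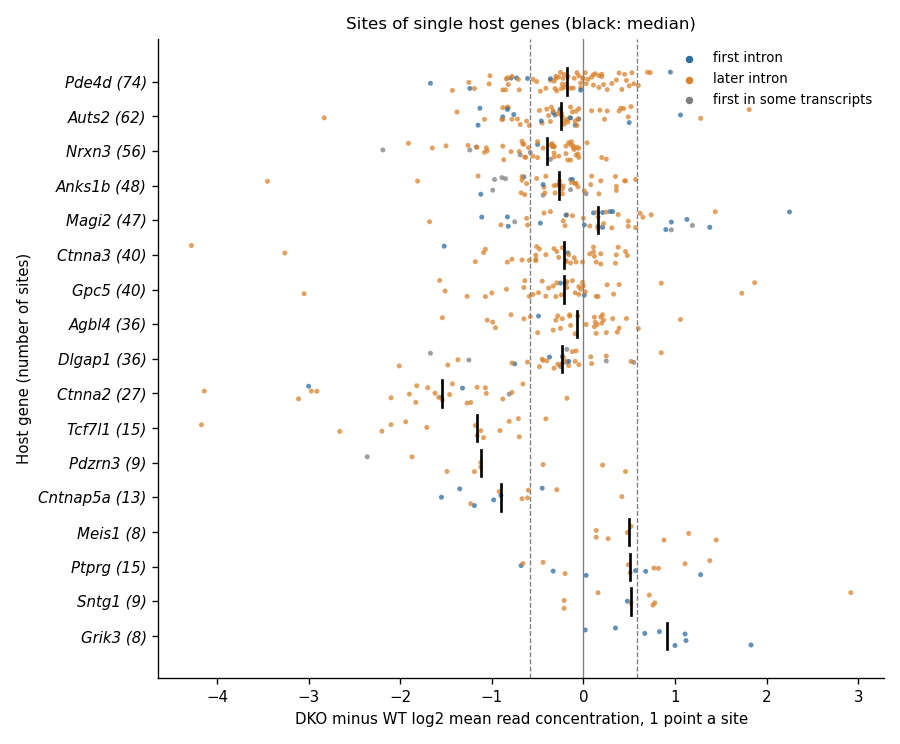
DKO minus WT difference (x axis, log2) of every intronic site, 1 point a site, in 9 of the 10 hosts with the most sites and the 8 hosts with the lowest or highest medians (y axis, number of sites in brackets), coloured by intron class, with the median in black and dashed lines at 1.5-fold. Ctnna2 (median -1.54) and Tcf7l1 (-1.16) lie almost wholly to the left of the dashed line and Grik3 (0.915) to the right of 0, whereas most other hosts straddle 0.

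Single sites were named for their difference from those with a concentration of at least 6 in 1 genotype, 833 in first and 2743 in later introns. Of the 16 so chosen, 10 were mostly masked as repeats or were tandem repeats, compared with 14.2% of all intronic sites, as described further down. In Niban1, a stress-induced gene, the first intron site shown above was at 6.29 in WT cells and at -0.10 in DKO cells, the lowest value listed. The other 6 sites of the gene had a median difference of -0.03. The site in St6galnac3, a sialyltransferase gene, was at 6.97 in WT and 4.69 in DKO cells. Ski encodes a corepressor that binds Smad2 and Smad3, and its site 32645 bp from the TSS was at 6.32 in WT and 4.25 in DKO cells, a difference of -2.07. The second Ski site was at 4.75 and 4.8. Bahd1, a heterochromatin protein gene, had 6.17 and 4.2.

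In the later introns the lowest difference was that of Bckdhb, a subunit of the branched-chain keto acid dehydrogenase, at 6.59 in WT and 3.33 in DKO cells. The site of Lrrtm4, a postsynaptic adhesion gene, was at 6.57 and 3.77. The St6galnac5 site, in another sialyltransferase gene, was at 6.22 and 3.45, and 3 of the other 5 sites of that gene were lower as well (median -0.64). In some other hosts the named site stood apart from its gene. The other 13 sites of Bckdhb had a median of -0.22 and the other 23 of St6galnac3 one of -0.06.

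Sites that were higher in DKO cells were named by the same rule. Among first introns, the largest differences were at Pgpep1l (5.14 in WT and 7.45 in DKO cells), Rhd, a blood group antigen gene (4.61 and 6.12), Magi2 (7.18 and 8.56) and Fam184b (4.87 and 6.18). Among later introns, Gm5724 had 2.53 and 6.4, and Cast, which encodes the calpain inhibitor calpastatin, had 3.61 and 7.4. The site in the transcription factor gene Foxp1 had 3.23 and 6.01 while its other 7 sites had a median of -0.29. Nme7, of the nucleoside diphosphate kinase family, had 4.41 and 6.61.

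The most accessible sites differed little between the genotypes. The highest WT concentrations in first introns were at D230017M19Rik (9.3 in WT and 9.19 in DKO cells), Nol4 (9.25 and 9.1) and the sodium/calcium exchanger gene Slc8a1 (9.23 and 8.8). In later introns 1600014C10Rik (9.9 and 9.63) and Pde4d (9.79 and 9.47) were among the highest. All 5 were within 1.5-fold, and all 5 were slightly below their WT values in DKO cells.

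The sequence under the extreme sites was often repetitive. In RefSeq's soft-masked genome 13.8% of the intronic sites had more than 50% of their 300 bases masked as repeats, at a similar share in first (13.3%) and later introns (13.9%). Of the 16 sites that the naming rule chose for their difference, 9 had more than 50% masked. Tandem repeats were scored as the highest share of bases equal to the base a fixed number of positions further on, over shifts of up to 60 bases. More than 60% identity was found at 1.01% of intronic sites but at 3 of these 16. The 3 were St6galnac3 (84.6% at a shift of 15 bases), Lrrtm4 (88.8% at 33) and Bckdhb (78.4% at 22), whose unit can be read in the line above although none of it is masked. Over all concentrations, 9.76% of the 246 sites lower by more than 2 log2 units were tandem repeats, compared with 0.838% of the 13601 sites within 1.5-fold and 0.762% of the 2231 sites lower by up to 1 unit. The share with more than 50% masked was 20.3%, 13.7% and 11.7% in these sets, and 25% of the 100 sites higher by more than 2 units. How repeats bear on the mean of uniquely aligned reads in cells of another strain than the genome was not tested.

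Letter strings of transcription factors were counted on both strands in the 300 bases around each midpoint. They were ATGCAAAT (octamer, bound by Oct4), TGTGGATT (FoxH1), GTCTAGAC (Smad palindrome), GGAATG (Tead), GGATTA (Otx2), TGTTTAC (forkhead), CATTGT (Sox), TGANTCA (AP-1), GGGNGNGGC (Klf) and CAGGTG (E-box). FoxH1 and Otx2 strings share letters, and 56 intronic sites held both. First and later introns held them at similar shares, with the octamer in 3.84% and 3.52%, FoxH1 in 1.34% and 1.1%, and the E-box in 26.8% and 26.9%. Over all listed sites the octamer was found in 3.15%, FoxH1 in 1.08%, the Smad palindrome in 0.224%, Tead in 17.6%, Otx2 in 8.71%, forkhead in 4.51%, Sox in 13.2%, AP-1 in 8.75%, Klf in 18.2% and the E-box in 26.8%.

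Of the intronic sites with 5 of the strings, larger shares were lower than of the sites without them, with intervals that did not overlap. A similar order was found among all listed sites, whose values are given further down. With the octamer 28% of 690 sites were lower (24.8 to 31.4), and without it 19.3%. With the FoxH1 string 29.9% of 231 sites were lower (24.3 to 36.1), and without it 19.5%. The Smad palindrome was present at 50 sites only, of which 19 were lower (38%, 25.9 to 51.8). The E-box was the most frequent, and 23.4% of its 5176 sites were lower (22.2 to 24.5), compared with 18.2% of the sites without. With the Otx2 string 22.2% of 1922 sites were lower (20.4 to 24.1), and without it 19.3% (18.7 to 19.9). For the forkhead (21.1% and 19.5%) and Sox strings (20.3% and 19.5%) the intervals overlapped. Both classes had this order for the octamer (30.7% of first and 26.2% of later intron sites) and for the E-box (24.7% and 22.9%). For FoxH1 it was 32.1% in later introns but 22.8% of 57 sites in first introns, where 20.3% of the sites without it were lower. Sites with the Tead string, bound by the effectors of the Hippo pathway, were lower in 19% of cases and those without it in 19.7%. Higher were 12% of the sites with the Tead string (11 to 13.1) and 9.34% of the sites without it. For the Sox string the higher shares were 11.3% (10.3 to 12.5) with and 9.6% (9.16 to 10.1) without. Of the sites with the octamer or the E-box, 5.36% and 8% were higher, compared with 10% and 10.6% of those without. With the Klf string 17.7% were lower (16.2 to 19.2) and without it 19.9%.

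The median GC content was 49.3% in first and 49% in later introns, compared with 65.3% within 1 kb of a TSS. Among sites with a concentration of at least 5, it was 48% in the lower, 49.7% in the higher and 49.3% in the remaining intronic sites. The part of GC content in the string shares was not tested. At this concentration, 33.4% of the lower, 20.2% of the higher and 26.3% of the remaining intronic sites held the E-box.

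**Figure D4:**
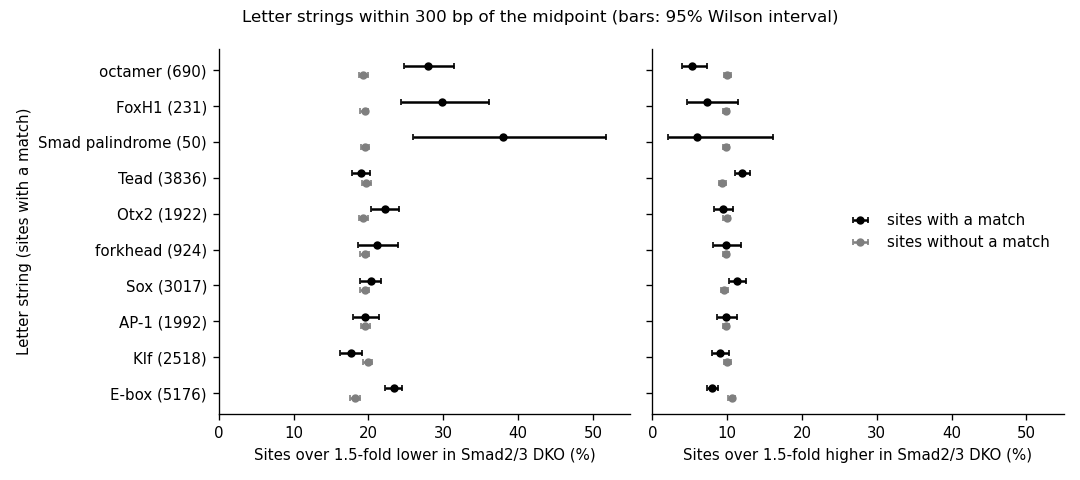
Share of intronic sites over 1.5-fold lower (left) and over 1.5-fold higher (right) in Smad2/3 DKO EpiLCs (x axes, percent) for sites with (black) and without (grey) a match to each of 10 letter strings (y axis, number of sites with a match), with bars for 95% Wilson intervals. The octamer (28%), FoxH1 (29.9%), the Smad palindrome (38%), Otx2 (22.2%) and the E-box (23.4%) lie to the right of their grey points in the left panel with bars apart, as do Tead (12%) and Sox (11.3%) in the right panel.

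The lists of genes are read beside all intronic sites, of which 19.6% were lower and 9.87% higher. They were chosen with earlier results of these data known, so their shares are descriptions and no test. Of the 28 Nodal, activin and TGF-beta pathway genes listed, 12 held 49 sites, with medians of 4.68 in WT and 4.35 in DKO cells. Of these 13 (26.5%, 16.2 to 40.3) were lower and 2 (4.08%) higher, and the interval of the lower share holds that of all intronic sites. Ski was described above. Zfyve9 (SARA), which presents Smad2 and Smad3 to the activated receptor, had 3 of 4 sites lower, the strongest at 7.27 in WT and 5.98 in DKO cells. Smurf1, a ubiquitin ligase for Smads and receptors, had 2 of 3 sites lower, at 4.51 and 3.34 in its first intron and at 3.27 and 2.03 in a later one. Ltbp1, which binds latent TGF-beta, held 21 sites, of which 5 were lower and 1 higher. The only site of Pcsk6, a convertase that cleaves the Nodal precursor, was higher, at 4.49 and 5.73. Of the receptor genes, Acvr1b, Acvr1c, Acvr2a and Tgfbr2 held 6 sites together, none of them past 1.5-fold, and the coreceptor gene Tgfbr3 had 1 of 9 lower. At a concentration of at least 5 the list held 19 sites, 2 lower and 2 higher, so that most of its lower sites were of lower concentration than this.

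In the BMP pathway, which signals through Smad1 and related Smads, 10 of 24 genes held 43 sites, and 15 (34.9%) were lower and 3 (6.98%) higher, against 19.6% and 9.87% of all intronic sites. Bmpr1b, a type I receptor, held 8 of these 15 lower sites among its 16, with none higher, the strongest of those with a concentration of at least 5 at 5.68 in WT and 4.38 in DKO cells. Bmp7, a ligand, had both of its sites lower (5.54 and 4.87, and 5.64 and 4.9). Smad1 had 2 first intron sites lower, at 6.5 and 5.78 and at 4.53 and 3.76, and 1 of 2 later intron sites higher, at 0.95 and 3.87.

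In the list of naive pluripotency genes 10 of 21 held 25 sites, with nearly equal numbers in each direction, 7 lower (28%) and 6 higher (24%), against 19.6% and 9.87% of all intronic sites, and a median difference of -0.24. Among these transcription factor genes, the site of Nr5a2 was lower (5.68 and 4.47) and that of Tfcp2l1 higher (4.23 and 5.62), and Esrrb had 2 of 5 lower. The primed and epiblast list was the one with a median above 0, at 0.2 over 61 sites in 12 of 28 genes, with 13 higher (21.3%) and 7 lower (11.5%). Fgf5, Otx2, Pou3f1, Foxd3, Pou5f1 and Sox2 were on this list but hosted no intronic site, so its median says nothing of these markers. Meis1 hosted 8 of the 61 sites and Tead1 10. Meis1 was at 5.17 in WT and 6.62 in DKO cells at its most different site, and the Ets factor gene Etv5, which acts downstream of Fgf, at 3.89 and 5.24. Tead1 had 3 sites higher and 2 lower of 10, and Fgfr1, an Fgf receptor, had medians of 5.28 and 5.83 over 3 sites, 1 of them higher. At a concentration of at least 5 the primed list held 34 sites, 7 higher and 3 lower.

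The Wnt list owed its lowered sites mostly to the chromosome 6 segment. Of 76 sites in 20 of 30 genes 26 were lower and 2 higher, but 14 of the 26 were in Tcf7l1, and without the segment 12 of 61 (19.7%) were lower at a median of -0.10, close to all intronic sites. Outside it, Ror1, a Wnt5a receptor, had 3 of 10 sites lower, with 5.58 in WT and 4.36 in DKO cells at the strongest of those with a concentration of at least 5. Tcf7l2 had 3 of 7 lower. In the Fgf and Erk list 11 of 30 genes held 64 sites, 13 lower (20.3%) and 5 higher (7.81%), close to the 19.6% and 9.87% of all intronic sites, with a median of -0.08. The intracellular Fgf genes Fgf14 (26 sites, 4 lower, 1 higher) and Fgf12 (13 sites, 5 lower) held most of them. The strongest Fgf14 site was at 5.47 and 3.95.

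Extra-embryonic regulators had few intronic sites, 16 in 7 of 24 genes, 4 lower (25%, 10.2 to 49.5) and 2 higher (12.5%), beside 19.6% and 9.87% of all intronic sites. Satb1 was at 6.47 in WT and 5.48 in DKO cells. In the list of chromatin and DNA methylation regulators 24 of 31 genes held 87 sites, 16 lower (18.4%) and 13 higher (14.9%), with a median of -0.13, the lower share being close to that of all intronic sites. Jarid2, a partner of the Polycomb complex PRC2, had 3 of 4 sites higher, the strongest at 5.76 and 6.78. The histone deacetylase gene Hdac4 had 3 of 4 lower. Dnmt3a, a de novo DNA methyltransferase, had 1 lower and 1 higher of 7.

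The list named for synaptic and adhesion genes with long introns was the largest, with 705 sites in 35 of 36 genes. Of these 218 (30.9%) were lower and 56 (7.94%) higher, compared with 19.6% and 9.87% of all intronic sites, at medians of 4.93 in WT and 4.62 in DKO cells. They lay farther from a TSS, at a median of 168115 bp against 40944 bp, and larger shares of the intronic sites were lower far from a TSS. At 100 to 500 kb 157 of the 485 sites of the list were lower (32.4%, 28.4 to 36.7), compared with 22.8% of the other 4091 intronic sites (21.5 to 24.1). At 20 to 100 kb the shares were 28.4% (22.4 to 35.3) and 18.8% (18 to 19.6), and at 5 to 20 kb, where the list held 37 sites, 24.3% (13.4 to 40.1) and 17.1% (16.1 to 18.1). This comparison within distances was added after the values were seen, and sites of 1 gene are not independent. Since the list was chosen with earlier results of these data known, its shares describe these genes only. Without the chromosome 6 segment, which took out 27 sites of Ctnna2, 192 of 678 (28.3%) were lower, and 30% of 467 (26 to 34.3) at 100 to 500 kb. Ptprd, a receptor phosphatase of synapses, had 13 of 23 sites lower, Dlg2 14 of 33, the axon guidance receptor gene Robo2 10 of 25 and the adhesion gene Cadm2 9 of 13. The cadherin gene Cdh12 was at 5.57 in WT and 3.62 in DKO cells at its lowest site, but this was 1 of 10 sites, of which 1 other was higher, and their median difference was -0.01. The list also held Immp2l (28 sites), Macrod2 (27), Fhit (21) and Wwox (18), long genes that its name does not describe. Not all genes of the list leaned this way, since Immp2l (4 lower, 5 higher of 28), Pcdh15 (1 and 4 of 17) and Magi1 (1 and 4 of 11) had more higher than lower sites. Most genes of the list belong to neurons, and what their sites did to expression was not analysed here.

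**Figure D5:**
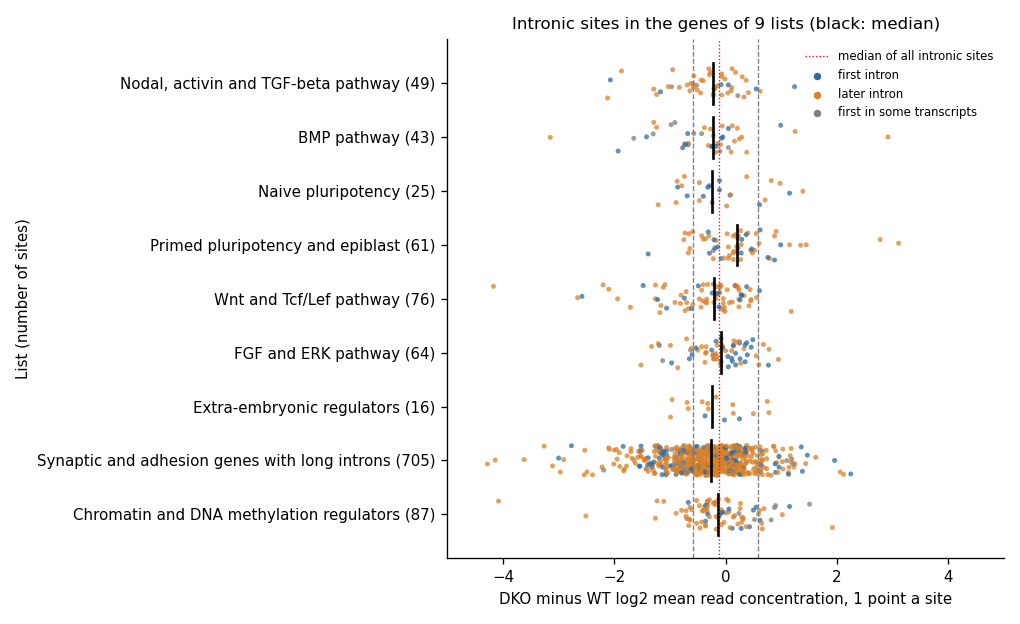
DKO minus WT difference (x axis, log2) of every intronic site, 1 point a site, hosted by the genes of each of 9 lists (y axis, number of sites in brackets), coloured by intron class, with the list's median in black, the median of all intronic sites dotted in red and dashed lines at 1.5-fold. The median of the primed pluripotency list (0.2) lies to the right of 0 and the other 8 medians lie to the left.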

How the data were processed

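ATAC-seq libraries of 3 WT and 3 Smad2/3 DKO EpiLC differentiations were analysed from 1 deposited site table. Per the study's methods, read pairs were mapped by the authors with Bowtie2 (build mm10). Reads that mapped to several places, fell in blacklisted regions or were duplicates (SAMtools) were dropped. DANPOS2 called the sites, using the triplicates against the Tn5-treated genomic DNA, and DiffBind set the genotypes against each other. The values used are the log2 mean read concentrations that the authors deposited, 1 per genotype. Versions and normalization are not given in the sources used here. Dropping reads with several placements can lower values in repeats. The overall concentration, fold, p-value and FDR columns hold the authors' own comparison and were not used. Depth per library is unknown.

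Midpoints were placed on 45756 curated RefSeq transcripts of GRCm38.p6 (26180 genes, 31601 TSSs), the same build as mm10. Differences are the DKO minus the WT concentration. Sites were called past 1.5-fold, with no test, since 1 mean per genotype leaves no replicate error. Intervals are 95% Wilson intervals for shares and order-statistic intervals for medians, and cover the counting of sites only. Eligible territory was counted on a 10 bp grid. The host is the gene of the longest transcript containing the site. Runs were searched with a running median over 25 sites of mean concentration 4 or more, at 0.5 or beyond over at least 1 Mb. Named were, per class, the 4 lowest and 4 highest differences among sites with a concentration of at least 6 in 1 genotype (1 per host) and the 3 highest WT concentrations, the 10 hosts with most sites, the 4 lowest and 4 highest host medians (at least 8 sites), and per list up to 3 sites past the fold at a concentration of at least 5. A few items that these rules named are not reported here. Other hosts were named from the lists after their values were seen. Members, lists and settings were chosen with earlier results of these data known. Alternatives are described with their effects at the end. Scripts were tested on simulated transcripts, runs and strings. Software was matplotlib 3.10.9, pysam 0.24.0, scipy 1.17.1, pandas 2.3.3 and numpy 2.4.6 under Python 3.11.15.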

Additional observations from a re-analysis of the deposited data

How the results depend on the processing

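No paired analysis was possible because the table holds 1 mean per genotype and no value per differentiation, which also leaves no replicate to leave out. Values are given for first and later introns in turn, or for later introns alone where so named. With a concentration of at least 5 in 1 genotype, 16.2% and 15.7% of sites were lower and 6.39% and 4.9% higher, the WT medians were 5.71 and 5.7, the widths 500 and 490 bp, and the median difference of later introns was -0.14. The lower shares were then 12.3% and 11.5% at 5 to 20 kb from a TSS and 26% and 20.4% over 100 kb. With each host gene counted once by its median, 14.8% and 13.1% were lower and 8.48% and 7.91% higher, and later introns had a median difference of -0.10, a WT median of 4.715 and a width of 340 bp. Beyond a 2-fold difference lay 8.64% and 7.46% on the lower side and 4.19% and 3.61% on the higher side, with lower shares of 7.03% and 5.84% at 5 to 20 kb and 15.3% and 9.69% over 100 kb. With differences centred on the median of all listed sites (-0.08), 17.1% and 16.1% were lower and 12.7% and 11.8% higher, both medians were -0.04, the lower shares at 5 to 20 kb were 14.1% and 14.3%, and that of later introns over 100 kb was 18.8%. Without sites that touch an exon, later introns had a WT median of 4.75 and a width of 340 bp. In 105 other recomputations the value stayed within the 95% interval of the reported one, among them those with other class definitions, predicted or coding transcripts only, 10 to 500 kb, the territory of the longest transcripts and without the chromosome 6 segment. First introns kept the higher lower share over 100 kb under every alternative that gave both values. The alternatives for distance, lists and strings were chosen after seeing the data, and of 114 values for lists and strings 56 left their interval. What limits all values is that neither read counts nor the spread between differentiations is known.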

Other observations

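The 809 sites that were in a first intron of some transcripts and in a later one of others had a median width of 340 bp, medians of 4.72 in WT and 4.56 in DKO cells, and 23.4% of them were lower and 9.77% higher. The lowest listed value stood for DKO at 48 intronic sites, whose WT median was 3.065, and for WT at 25 sites, whose DKO median was 0.63. Around the limits of the rule, intronic sites 4 to 5 kb from a TSS (545 sites) had a WT median of 4.82 and 18.2% were lower, and those at 5 to 6 kb (505 sites) had 4.85 and 13.1%. At 400 to 500 kb (229 sites) 24.5% were lower, and over 500 kb (382 sites) 21.7%.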
